A study of Mus musculus with 8 samples.

Results

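Scavenger receptors are cell-surface or lysosomal receptors that bind modified lipoproteins, bacterial surfaces, dying cells and plasma proteins and carry them into the cell. The 10 genes described here are Marco, Msr1 and Colec12, the class A receptors with a collagen-like stalk; Cd36, Scarb1 and Scarb2 of class B; the stabilins Stab1 and Stab2; Timd4, a receptor for phosphatidylserine on dying cells; and Lrp1, a large endocytic receptor whose ligands include the complex of heme with hemopexin. They were taken by symbol from a table of 55414 genes. All 10 had a row and all 10 passed the filter on low counts, which left 14004 genes for testing.

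Gene expression was measured by RNA-seq in red pulp macrophages, the resident macrophages of the spleen that engulf old erythrocytes and return iron to the blood. Cells were sorted by flow cytometry from spleens of C57BL/6J animals of wild-type genotype, either 2 h after CLP (4 libraries) or 2 h after sham surgery (Sham, 4 libraries). CLP stands for cecal ligation and puncture, a model of sepsis in which the cecum leaks gut bacteria into the abdomen. Age and sex were not analysed here, and the labels do not say whether each library came from 1 mouse or from a pool, and the p-values therefore cover the spread among these libraries, which may in part be technical. Because the samples are bulk, fewer cells of a type and less RNA per cell cannot be told apart.

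Library totals were 17333748 to 21409078 counts in CLP and 15392992 to 25665633 in Sham. All 16 defining genes of red pulp macrophages were detected, and together they held 55610 to 64020 CPM, read counts per gene scaled to a common library total, in CLP and 47760 to 58340 CPM in Sham. The adhesion molecule Vcam1 was the most abundant at 16140 ± 1980 CPM in CLP and 12610 ± 1181 CPM in Sham (SD, n = 4 each). The 16 genes did not move together. In the edgeR test described below, 8 were called higher after CLP and 2 lower. The lower genes were Slc40a1 (log2 fold change -0.40) and Mertk (-0.51). With libraries scaled by their plain totals, 1 was called higher and 4 lower. A pair of libraries stood apart for the genes described below. Sham replicate 4 held 1372 CPM of erythroid transcripts against 281 to 461 CPM in the other Sham libraries, with CLP at 718 to 1243 CPM. CLP replicate 3 had the highest level of its group for Marco, Timd4, Cd36 and Stab1 and the lowest for Msr1, Scarb1, Scarb2, Stab2 and Lrp1. Results that rest on either library are given with and without it.

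Marco and Timd4 rose after CLP, and no other scavenger receptor of the 10 passed the test. Marco, a receptor for bacterial surfaces, was 2.50-fold higher, and Timd4 was 1.87-fold higher. The other 8 genes, among them Lrp1, the most abundant per kilobase of exon, did not pass. Of the 10 genes 2 (20%) were called, both higher, in edgeR's quasi-likelihood test at an adjusted p of 0.05, whereas 43.3% of all genes tested were called, 19.8% higher and 23.5% lower. DESeq2 and limma-voom gave the same count, 2 higher and 0 lower, and at an unadjusted p below 0.05 the 1 lower gene was Stab1. The 10 log2 fold changes had a median of 0.17, with 8 above 0 and 2 below, beside a median of -0.05 over all genes. The groups did not overlap for 1 of the 10 genes, Timd4, against 41.5% of all genes tested (CLP above Sham in 18.7%, below in 22.8%). The direction of the smaller changes depended on how libraries were scaled. With plain library totals in place of TMM factors (trimmed mean of M-values), the fold changes of all genes shifted by a median of -0.32 on the log2 scale, and of the 10 genes 2 were higher and 4 lower. Of all 14004 genes tested, 1286 were called higher and 6435 lower with those totals. Marco and Timd4 were the 2 higher genes under both scalings.

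**Figure D1:**
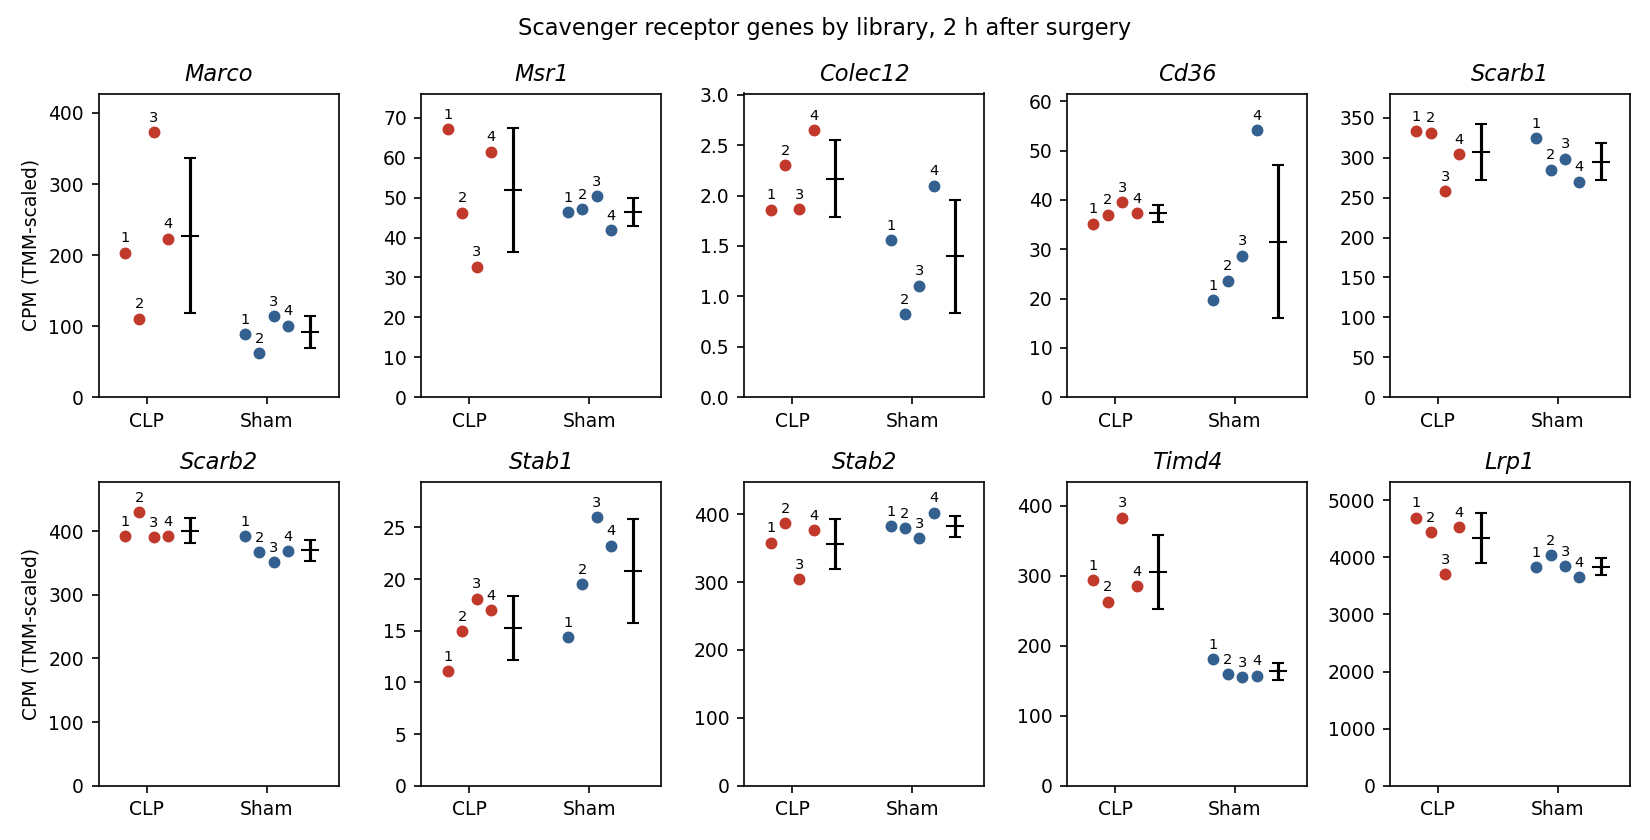
TMM-scaled CPM of each gene in each library, with an axis from 0. Points are libraries marked with their replicate number, and the bar beside them is the mean ± SD of 4 libraries. Timd4 is the 1 gene whose 4 CLP libraries (263 to 383 CPM) all lie above the 4 Sham libraries (155 to 181 CPM).

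Timd4 encodes TIM-4, which tethers dying cells by their exposed phosphatidylserine and is carried by many tissue-resident macrophages. It had 294, 263, 383 and 285 CPM in CLP replicates 1 to 4, against 181, 160, 155 and 158 CPM in Sham replicates 1 to 4. The lowest CLP library lay above the highest Sham library. The log2 fold change was 0.91 (SE 0.11, edgeR adjusted p = 9.04e-05), with a 95% interval of 0.66 to 1.15. Library totals as scaling gave 0.59 (adjusted p = 0.000956), and the value was 0.78 without CLP replicate 3, the highest library (adjusted p = 1.95e-05).

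Marco, by contrast, varied widely between libraries. It had 203, 111, 373 and 223 CPM in CLP replicates 1 to 4, against 88.3, 61.7, 114 and 101 CPM in Sham replicates 1 to 4. 3 of the CLP libraries lay above all Sham libraries, while CLP replicate 2 lay just below Sham replicate 3. The mean was 228 ± 109 CPM in CLP and 91.3 ± 22.4 CPM in Sham (SD, n = 4 each). Its log2 fold change was 1.32 (SE 0.37, edgeR adjusted p = 0.0219), with a 95% interval of 0.46 to 2.17. Leaving out CLP replicate 3 gave 0.98 (adjusted p = 0.0469), and the adjusted p was at most 0.049 with any 1 library left out. The call was lost with no filter on low counts (adjusted p = 0.0693) and when CLP replicate 3 and Sham replicate 4 were both left out (1.02, adjusted p = 0.0899), an alternative chosen after the data were seen.

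In the mouse spleen Marco is best known from marginal zone macrophages. Cd209b, a marker that defines those cells, lay at 0.16 to 0.92 CPM in CLP and 0.22 to 0.64 CPM in Sham, Cd209f and Cd209g had at most 1 count in any library, and 0 of the 3 tested genes of that marker list were called, of 5 in the list. At an unadjusted p below 0.05, and with DESeq2 or limma-voom, 0 were called as well. Siglec1, a marker of metallophilic macrophages, was at 273 ± 27 CPM in CLP and 247 ± 25 CPM in Sham (adjusted p = 0.243), and the whole list summed to 246 to 305 CPM in CLP and 216 to 273 CPM in Sham. The library with the most Marco, CLP replicate 3, also had the highest list sum (305 CPM) and the most Siglec1 (304 CPM) of all libraries, while its Cd209b stood at 3 counts. It held the most neutrophil markers as well, at 175 CPM against 102 to 137 CPM in the other CLP libraries and 76.9 to 92.9 CPM in Sham. Most of that sum was Csf3r, and the defining marker Ly6g was at 0 in 7 of 8 libraries. In edgeR 3 of the 4 tested genes of 11 in the list were called higher and 0 lower. Among the higher genes were S100a8 (4.40-fold) and S100a9 (4.91-fold). DESeq2 called 3 higher and 2 lower. Mpo and Elane, which edgeR did not test, had more counts in Sham. Mpo had 0 to 86 counts in Sham and 0 to 3 in CLP, and Elane 2 to 14 in Sham and 0 to 1 in CLP. Monocyte markers in CLP replicate 3 summed to 58.5 CPM, against 26.8 to 35.5 CPM in the other CLP libraries and 32.7 to 46.4 CPM in Sham, with 0 of 6 tested genes of 7 called by edgeR (0 also at an unadjusted p below 0.05 and by DESeq2 and limma-voom). T and NK cell markers were highest there too (41.8 CPM, against 15.95 to 24.8 CPM in the other CLP libraries and 14.97 to 27.6 CPM in Sham), and 1 of 7 tested genes was called, Ncr1, which was lower. The part of any of these cells in the level of Marco was not tested.

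The promoter windows of these genes are shown because they were the ones called. They run from 250 bases before to 50 bases after the annotated start and come from RefSeq on build GRCm38.p6, an older build than the mm39 named for the counts. Marco lies on chromosome 1 (chr1:120504975-120505274, minus strand) and Timd4 on chromosome 11 (chr11:46810549-46810848, plus strand). Each is printed 5′ to 3′ along its gene, with matches to the motifs named below in capitals.
Marco: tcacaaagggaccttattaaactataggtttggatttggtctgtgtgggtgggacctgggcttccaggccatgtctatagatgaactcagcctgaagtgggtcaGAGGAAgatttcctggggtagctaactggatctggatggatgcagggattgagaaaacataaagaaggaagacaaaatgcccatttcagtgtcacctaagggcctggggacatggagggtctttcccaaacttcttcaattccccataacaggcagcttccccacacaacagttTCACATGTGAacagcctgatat
Timd4: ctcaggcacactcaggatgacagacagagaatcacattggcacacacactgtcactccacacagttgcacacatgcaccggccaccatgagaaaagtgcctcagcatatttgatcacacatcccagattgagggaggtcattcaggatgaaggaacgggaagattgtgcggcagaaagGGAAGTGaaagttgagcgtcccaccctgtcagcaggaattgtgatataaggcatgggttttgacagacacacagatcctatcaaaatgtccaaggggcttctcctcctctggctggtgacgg

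A total of 7 motifs, chosen with these sequences in view, were searched on both strands of every 300-base RefSeq window (32851 windows, several for some genes). In Marco, TCACATG, an E-box with the flanking base preferred by the MiT/TFE family (Mitf, Tfec, Tfeb), begins at base 279 of the window and again on the other strand at base 282, both matches overlapping in a palindrome, and occurs in 3.99% of windows. GAGGAA, a core of PU.1 sites, begins at base 105 and occurs in 28.3% of windows. In Timd4, GGAAGTG, a site of the ETS family to which PU.1 belongs, begins at base 179 and occurs in 3615 of the 32851 windows. The NF-kB consensus (in 4.51% of windows), TGANTCA for AP-1 (7.81%), TGACNNNGC for NRF2 (12.4%) and the TATA box TATAAA (13.6%) matched neither window. No other matches overlapped. A match to letters does not show that a factor binds there.

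The genes whose profile over the 8 libraries was nearest to that of each called gene were found among 9087 named genes of at least 5 CPM, by the root mean square difference of log2 CPM after centring each gene on its own mean. For Timd4 they were Sh3bgrl2 (0.07), Acsl5 (0.08) and Nrbf2 (0.10). Acsl5, which activates long-chain fatty acids, had 309 ± 54 CPM in CLP and 158 ± 11 CPM in Sham (SD, n = 4 each), and Nrbf2 is a subunit of an autophagy lipid kinase complex. For Marco the nearest were the septin Sept11 (0.24), Hivep3 (0.24) and Sh3pxd2b (0.31), which are farther from it than the neighbours of Timd4 are from Timd4. CLP replicate 3 was the highest library for all 6 of these genes, as for Marco and Timd4. The 6 genes were picked for their likeness to Marco or Timd4 over these same libraries. The shared peak therefore describes that choice again and is no separate support.

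**Figure D2:**
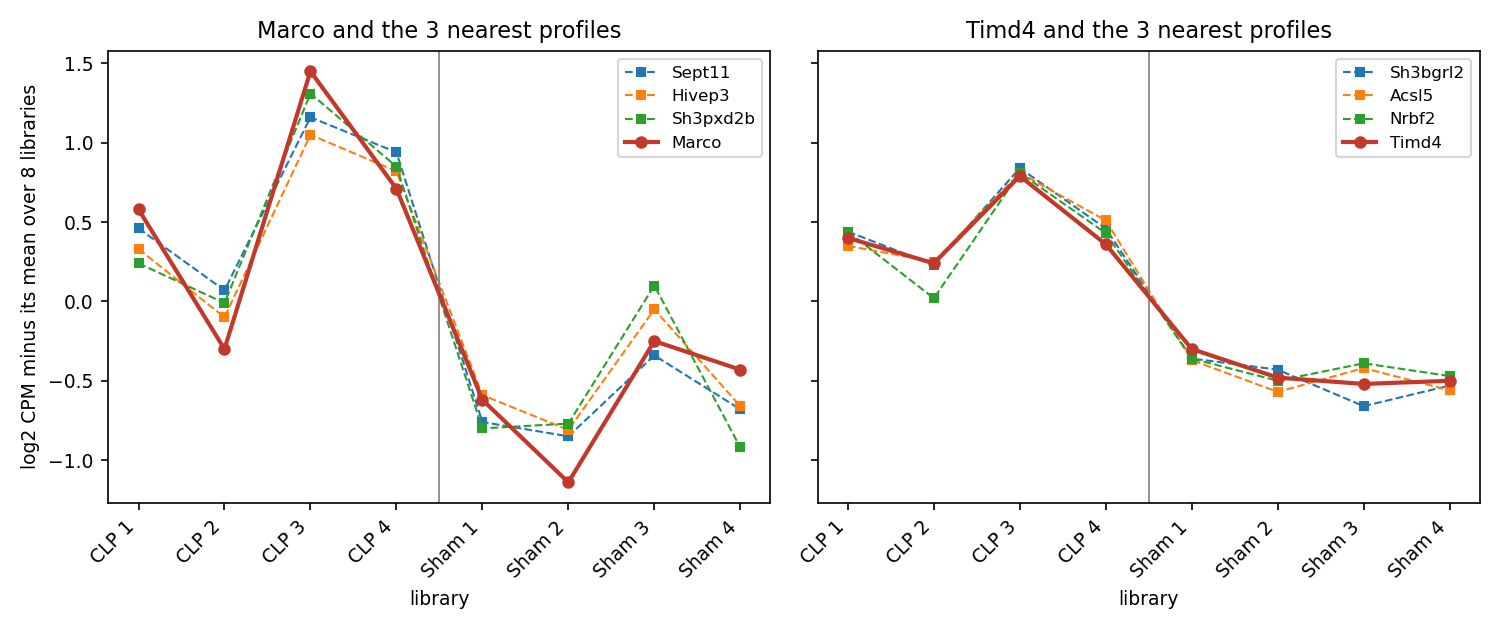
Log2 CPM minus its mean over 8 libraries (y axis) in each library (x axis), for Marco and Timd4 (red) and the 3 genes nearest to each (dashed). The 3 neighbours of Timd4 lie within 0.10 root mean square units of it, while those of Marco lie 0.24 to 0.31 away.

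The other class A receptors did not pass the test. Msr1, the macrophage receptor for acetylated lipoproteins and bacterial lipids, had 67.1, 46.2, 32.7 and 61.5 CPM in CLP replicates 1 to 4, against 46.4, 47.1, 50.3 and 41.8 CPM in Sham replicates 1 to 4. The CLP libraries lay on both sides of the Sham libraries (log2 fold change 0.16, 95% interval -0.28 to 0.60, edgeR adjusted p = 0.547). Without CLP replicate 3, the lowest, Msr1 was called higher at 0.33 (adjusted p = 0.045). Marco and Msr1 thus went opposite ways in that library. The log2 ratio of Marco to Msr1 counts, which needs no scaling between libraries, was 3.51 in CLP replicate 3, 1.26 to 1.86 in the other CLP libraries and 0.39 to 1.27 in Sham.

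Colec12, a collectin-type scavenger receptor known mainly from endothelial and stromal cells, was close to the limit of detection with 19 to 51 counts per library. It had 1.86, 2.30, 1.86 and 2.65 CPM in CLP replicates 1 to 4, against 1.56, 0.82, 1.11 and 2.10 CPM in Sham replicates 1 to 4. The groups overlapped through Sham replicate 4 (log2 fold change 0.62, 95% interval -0.06 to 1.31, edgeR adjusted p = 0.131), and without that library it was called higher at 0.91 (adjusted p = 0.0388). Fibroblastic stroma markers summed to 20.8 to 28.4 CPM in CLP and 8.80 to 16.7 CPM in Sham, with 4 of 6 tested genes called higher, Dcn at 3 counts or fewer in every library and Lum at 0. Whether the stromal transcripts had a part in the level of Colec12 was not tested.

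Among class B receptors, Cd36 stood out for its spread in Sham. Cd36 takes up long-chain fatty acids and oxidised lipoproteins and is also carried by platelets. It had 35.2, 37.0, 39.5 and 37.3 CPM in CLP replicates 1 to 4, against 19.6, 23.6, 28.7 and 54.1 CPM in Sham replicates 1 to 4. The CLP libraries were nearly alike, with an SD that was 4.80% of the mean against 49.2% in Sham, and Sham replicate 4 lay above all of them while the other 3 Sham libraries lay below all of them. With all libraries the log2 fold change was 0.24 (95% interval -0.42 to 0.90, edgeR adjusted p = 0.538). Without Sham replicate 4 it was 0.66 and called higher (SE 0.12, adjusted p = 0.00139).

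The summed level of 10 erythroid genes, of which 8 were tested and 3 called higher, shared part of its library order with Cd36. It was 961, 1025, 1243 and 718 CPM in CLP replicates 1 to 4 and 281, 393, 461 and 1372 CPM in Sham replicates 1 to 4, so that in both measures Sham replicates 1, 2 and 3 were the lowest libraries, in that order, CLP replicate 3 was second highest and Sham replicate 4 highest. Slc4a1, the red cell anion exchanger and most abundant of that list, reached 902 CPM in Sham replicate 4 and was the largest part of the sum there. Its level rose from Sham replicate 1 to 3 (125, 193 and 275 CPM) in the order of the sum. Where CLP libraries are included, its order differed from that of the sum. Slc4a1 was lower in CLP replicate 4 than in Sham replicate 3, and lower in CLP replicate 3 than in CLP replicates 1 and 2. The 3 genes called higher also differed in order from the sum, with CLP replicate 3 highest and Sham replicate 4 below every CLP library. Alas2 had 255 to 520 CPM in CLP, against 171 CPM in Sham replicate 4 and 86.2 to 97.3 CPM in the other Sham libraries. Hbb-bs had 106 to 200.2 CPM in CLP and 31.2 to 74.1 CPM in Sham, and Hbb-bt had 19.9 to 35.2 CPM in CLP and 4.92 to 17.2 CPM in Sham. Platelet and megakaryocyte markers summed to 78.2 to 108 CPM in CLP and 70.1 to 86.6 CPM in Sham, most of it Clec1b, and 5 of 8 tested genes were called higher. Among them the platelet chemokine Ppbp had 8.54 to 11.3 CPM in CLP and 2.92 to 3.79 CPM in Sham, and Gp5 had 0.99 ± 0.38 CPM in CLP and 0.21 ± 0.09 CPM in Sham (SD, n = 4 each). The part of red cell precursors or platelets in the level of Cd36 was not tested.

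Scarb1 encodes SR-BI, the receptor for high-density lipoprotein, and Scarb2 encodes LIMP-2, which brings glucocerebrosidase to the lysosome. Both were steady under TMM scaling. Scarb1 had 258 to 333 CPM in CLP and 270 to 325 CPM in Sham (log2 fold change 0.06, 95% interval -0.15 to 0.27, edgeR adjusted p = 0.653). Scarb2 had 390 to 430 CPM in CLP and 351.5 to 392.3 CPM in Sham (0.12, 95% interval -0.03 to 0.27, adjusted p = 0.196). With library totals both turned to the other side and were called lower, at -0.26 for Scarb1 (adjusted p = 0.0259) and at -0.20 for Scarb2 (adjusted p = 0.0246). Their ratio to each other did not depend on scaling, with log2 counts of Scarb1 over Scarb2 at -0.60 to -0.23 in CLP and -0.45 to -0.23 in Sham. The log2 ratio of Cd36 to Scarb2 was -3.54 to -3.30 in CLP and -4.32 to -2.77 in Sham.

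The stabilins, which clear altered proteins and, for Stab2, hyaluronan, and also bind phosphatidylserine, were the 2 genes with a log2 fold change below 0. Stab1 had 11.1, 14.9, 18.1 and 17.0 CPM in CLP replicates 1 to 4, against 14.4, 19.5, 25.98 and 23.2 CPM in Sham replicates 1 to 4. The groups overlapped (log2 fold change -0.44, 95% interval -0.87 to -0.01, edgeR adjusted p = 0.0944). It was called lower without Sham replicate 1, the lowest Sham library (-0.55, adjusted p = 0.026), and when scaled by library totals (-0.76, adjusted p = 0.0096). Its exons share 112 bases with Nt5dc2 on the opposite strand in GENCODE M21, and whether counting used strand is not given in the sources used here.

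Stab2, which in the spleen is best known from sinusoidal endothelium, was at 304 to 386 CPM in CLP and 365 to 402 CPM in Sham (log2 fold change -0.10, 95% interval -0.28 to 0.08, edgeR adjusted p = 0.366). Library totals made it a lower call (-0.42, adjusted p = 0.00141), near the median of -0.37 that all genes had under that scaling. The endothelial genes Cdh5 and Kdr stayed at 0.58 to 4.48 CPM over the 8 libraries, and Emcn and Clec14a had at most 1 count in any library. Other genes of that list were Esam at 7.24 to 10.7 CPM in CLP and 6.06 to 9.95 CPM in Sham, Plvap at 1.85 to 3.29 CPM in CLP and 0.93 to 3.17 CPM in Sham, and Lyve1, which was called 4.95-fold higher, at 7.11 to 11.3 CPM in CLP and 0.82 to 2.59 CPM in Sham. Of the 15 genes 7 were tested, with 1 higher (Lyve1) and 1 lower (Vwf). The endothelial list as a whole summed to 575 to 610 CPM in CLP and 512 to 610 CPM in Sham, nearly all of it Pecam1 (481 ± 14 CPM in CLP, 435 ± 42 CPM in Sham, SD, n = 4 each) and Vwf, which platelets also express. The part of endothelial cells in the level of Stab2 was not tested. The log2 ratio of Stab1 to Stab2 counts was -5.01 to -4.07 in CLP and -4.73 to -3.81 in Sham.

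Lrp1, per kilobase of exon, had the highest level of the 10 genes in every library. It had 4696, 4443, 3706 and 4527 CPM in CLP replicates 1 to 4, against 3825, 4034, 3842 and 3653 CPM in Sham replicates 1 to 4. 3 CLP libraries lay above all Sham libraries and CLP replicate 3 lay among them. The log2 fold change was 0.18 (95% interval -0.02 to 0.37, edgeR adjusted p = 0.127). Without CLP replicate 3 it was 0.25 and called higher (adjusted p = 0.0199). Scaling by library totals gave -0.14 (adjusted p = 0.144).

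**Figure D3:**
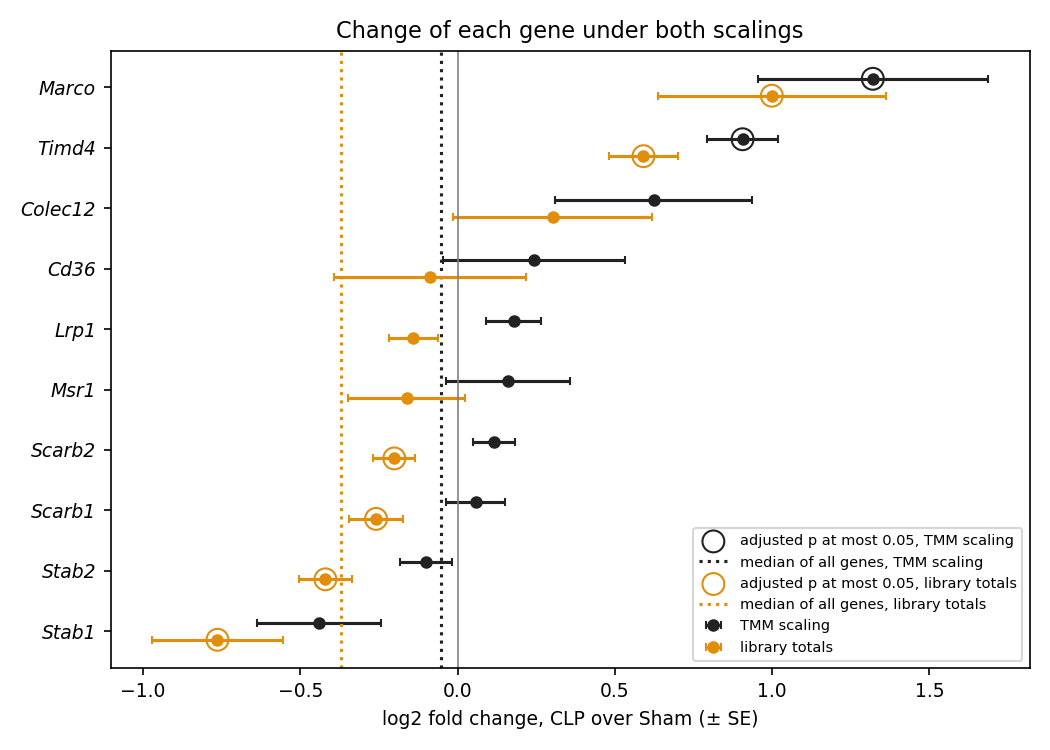
Log2 fold change of CLP over Sham (± SE) for each gene, with TMM scaling (black) and with library totals (orange). Open rings mark an adjusted p of at most 0.05, and dotted lines mark the median of all genes (-0.05 and -0.37). Marco and Timd4 stay right of 0 and ringed under both scalings, and Scarb1, Scarb2, Stab1 and Stab2 are ringed left of 0 with library totals.

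Levels of different genes were compared as CPM per kilobase of exon, with exon lengths from GENCODE M21. Lrp1 was first with 245 ± 25 in CLP and 217 ± 9 in Sham (SD, n = 4 each), and its ranges did not touch those of Timd4, which was second with 141 ± 24 in CLP and 75.2 ± 5.4 in Sham. In CLP, Marco came next (118 ± 56) and then Scarb2 (63.8 ± 3.1), whereas in Sham Scarb2 came next (58.9 ± 2.7) and then Marco (47.4 ± 11.6). The ranges of Marco and Scarb2 overlapped in both groups, and so did those of Timd4 and Marco in CLP. Below them in both groups came Stab2 (40.7 ± 4.2 in CLP, 43.6 ± 1.8 in Sham) and then Scarb1 (36.1 ± 4.1 in CLP, 34.7 ± 2.7 in Sham). Their ranges overlapped in CLP but not in Sham, while those of Marco and Stab2 overlapped in Sham but not in CLP. Cd36 and Msr1 followed at 7.31 to 10.4 as group means and overlapped each other, then Stab1 (1.49 in CLP, 2.02 in Sham) and Colec12 (0.25 in CLP, 0.16 in Sham), each apart from its neighbours.

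As shares of the summed level per kilobase of all 10 genes, Marco and Timd4 together made up 35.9%, 29.7%, 51.1% and 37.1% in CLP replicates 1 to 4, against 25.6%, 21.8%, 26.2% and 25.4% in Sham replicates 1 to 4. The pair was chosen because both genes were called higher in these libraries, so the higher share in CLP describes those calls again and is no separate support for them. Lrp1 made up 28.9% to 41.8% in CLP and 42.0% to 47.0% in Sham.

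**Figure D4:**
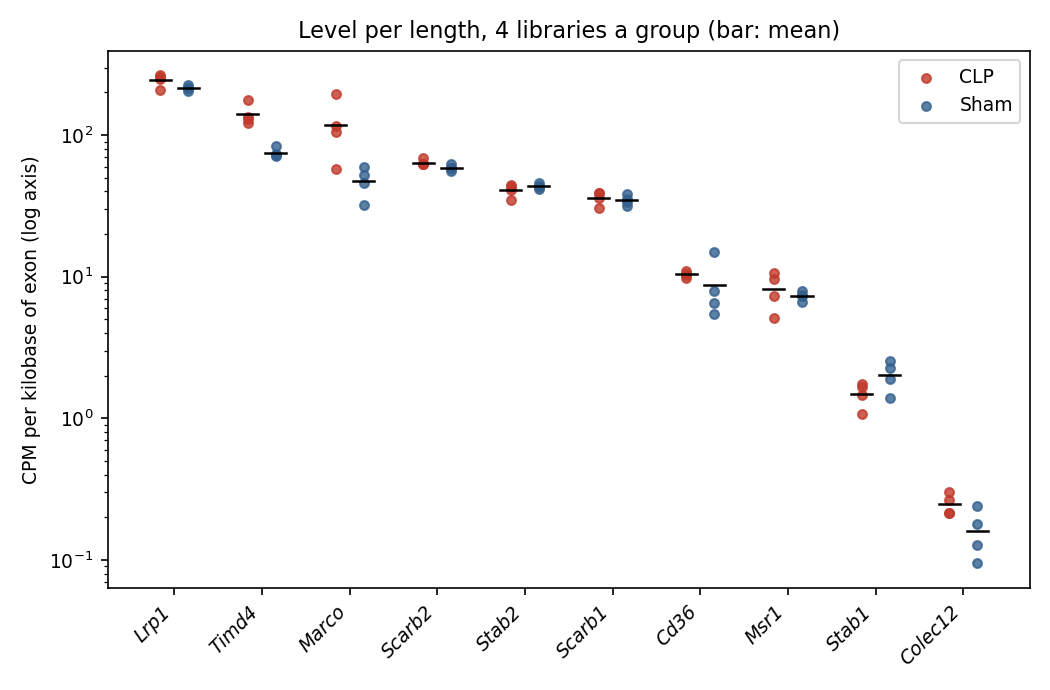
CPM per kilobase of exon on a log axis for each gene, ordered by the CLP mean. Points are the 4 libraries of each group (CLP left, Sham right) and the bar is their mean. Lrp1 leads in both groups at 245 in CLP and 217 in Sham, and Colec12 is lowest at 0.25 in CLP and 0.16 in Sham.

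Lists of genes that act beside these receptors were counted the same way, with abundance within a list taken as mean CPM. Over all genes tested, 19.8% were called higher and 23.5% lower. The lists were chosen with earlier results of these data known, so a count above those shares is no test of a list. Of 18 other scavenger receptors and receptors of like ligands, 10 were tested, 5 were higher and 1 was lower (median log2 fold change 0.29). Cd14, the lipopolysaccharide co-receptor, was 8.06-fold higher (7079 ± 988 CPM in CLP, 878 ± 252 CPM in Sham, edgeR adjusted p = 1.53e-05). Cxcl16, a membrane chemokine that also binds oxidised lipoprotein and phosphatidylserine, was 3.87-fold higher (123 ± 22 CPM in CLP, 31.9 ± 6.9 CPM in Sham), and Clec7a, the beta-glucan receptor Dectin-1, was 1.82-fold higher. The lower gene was Ssc4d (log2 fold change -1.63, adjusted p = 0.00222), at 0.86 ± 0.35 CPM in CLP and 2.69 ± 0.66 CPM in Sham (SD, n = 4 each) and named after its value was seen.

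Of 15 genes of the family of Lrp1 and its partners, 11 were tested, 3 were higher and 0 lower in edgeR (3 and 0 also at an unadjusted p below 0.05 and by DESeq2 and limma-voom), with a median log2 fold change of 0.09. With library totals 2 were higher and 4 lower. Lrp10 was 1.72-fold higher (294 ± 31 CPM in CLP, 171 ± 18 CPM in Sham, SD, n = 4 each, edgeR adjusted p = 0.000111). Lrpap1, the chaperone of Lrp1, was called at a log2 fold change of 0.23 (adjusted p = 0.032). It was no longer called when CLP replicate 1, CLP replicate 4, Sham replicate 3 or Sham replicate 4 was left out (highest adjusted p = 0.0824), and it turned to -0.09 with library totals (adjusted p = 0.319). Sorl1, the most abundant of the list at 359 ± 26 CPM in CLP and 334 ± 29 CPM in Sham, did not pass (0.11, adjusted p = 0.343) and was called lower with library totals (-0.21, adjusted p = 0.0315).

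Of 18 bridging proteins, phosphatidylserine receptors and uptake adaptors, 15 were tested, 8 were higher and 0 lower (9 and 0 by DESeq2, 8 and 0 by limma-voom, 9 and 0 at an unadjusted p below 0.05), with a median of 0.39. With library totals 3 were higher and 0 lower. Thbs1, which encodes the Cd36 ligand thrombospondin-1, was 4.72-fold higher (22.6 ± 5.2 CPM in CLP, 4.84 ± 1.95 CPM in Sham, SD, n = 4 each, edgeR adjusted p = 0.00015). The phosphatidylserine-binding receptor Cd300lf was 1.79-fold higher and the adaptor Crk 1.64-fold higher, and all 3 of these genes stayed called with library totals. Calr, the most abundant, which can act with Lrp1 at the surface of dying cells and phagocytes, was 1.32-fold higher (adjusted p = 0.00174) but not with library totals (log2 fold change 0.08, adjusted p = 0.374).

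Genes that handle the lipid these receptors take in split. Of 18 tested, 7 were higher and 3 lower (4 and 8 with library totals), with a median of 0.10. The fatty acid binding proteins Fabp5 and Fabp4 were 2.36-fold and 2.11-fold higher, and the cholesterol exporter Abca1, the most abundant, was 1.89-fold higher (1507 ± 151 CPM in CLP, 799 ± 33 CPM in Sham, SD, n = 4 each, edgeR adjusted p = 1.45e-05). Plin2, the coat protein of lipid droplets, fell by 1.28 on the log2 scale (87.4 ± 9.9 CPM in CLP, 212 ± 12 CPM in Sham, adjusted p = 2.15e-06). These 4 calls also held with library totals.

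The transcription factors listed here as possible regulators of scavenger receptor genes moved in both directions. Among 15 tested, 7 were higher and 6 lower (5 and 8 with library totals), with a median of -0.15. Cebpa fell by 2.14 on the log2 scale (edgeR adjusted p = 9.19e-07) and Tfeb fell by 1.51 (adjusted p = 1.45e-06). Spic, which red pulp macrophages need to develop and the most abundant of the list, had 2213 ± 370 CPM in CLP and 1186 ± 118 CPM in Sham (SD, n = 4 each, log2 fold change 0.90, adjusted p = 0.000166). Tfec, Mitf and Tfeb belong to the family whose E-box letters matched the Marco window, and are set side by side for that reason. Tfec had 255 CPM in CLP and 115 CPM in Sham on average (log2 fold change 1.15). Mitf had 86.8 CPM in CLP and 65.8 CPM in Sham (0.40), and both were called higher. With library totals Tfec stayed called (0.83, adjusted p = 0.00663) and Mitf did not (0.08, adjusted p = 0.468). Tfeb had 16.01 CPM in CLP and 45.6 CPM in Sham. Whether any of these factors acts on Marco was not tested.

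**Figure D5:**
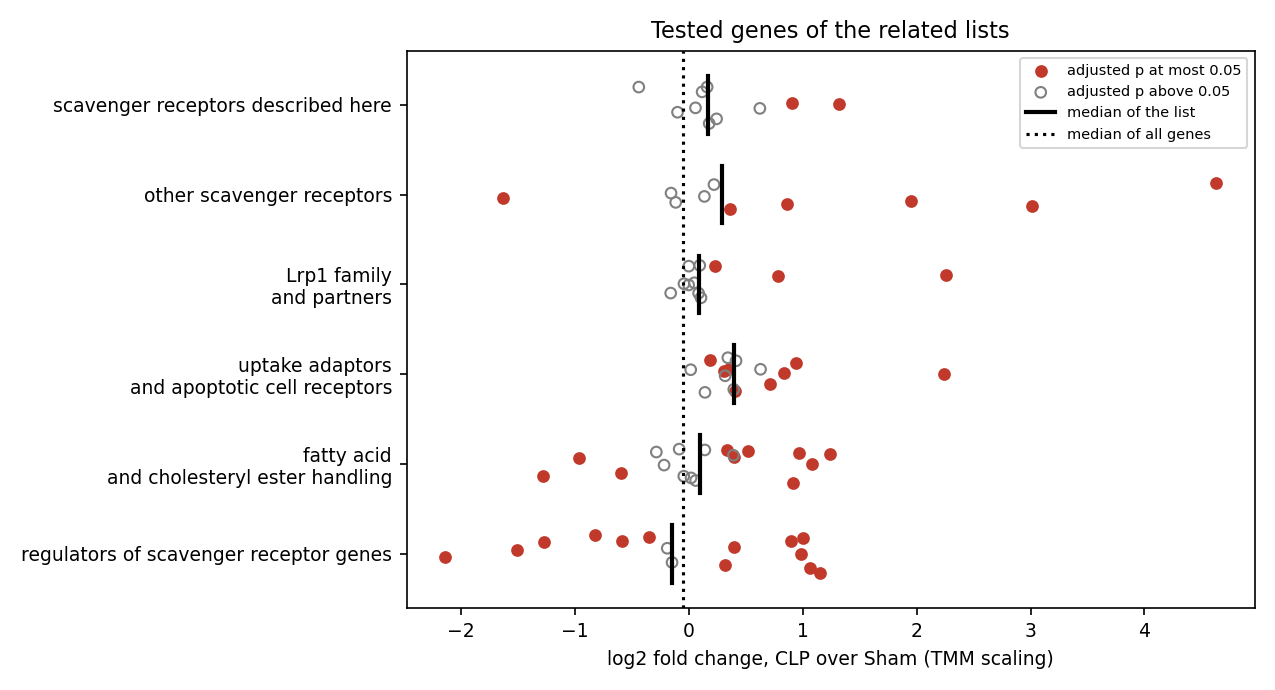
Log2 fold change of CLP over Sham (x axis, TMM scaling) for each tested gene of the 10 receptors and of 5 related lists (rows; vertical position within a row is arbitrary). Filled points have an adjusted p of at most 0.05, bars are list medians and the dotted line is the median of all genes (-0.05). Of the receptors 2 of 10 are filled, and of the listed regulators 13 of 15, beside 43.3% of all genes tested. The lists were chosen with earlier results of these data known, so these counts do not test a difference between lists.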

How the data were processed

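The authors deposited raw counts per Ensembl gene, 1 column per library. FastQC, STAR 2.7.10b, featureCounts, DESeq2 and build mm39 are named in the submitters' processing notes without roles; neither the annotation release nor the strand setting is given in the sources used here. Per the labels, stranded TruSeq libraries were sequenced on an Element AVITI. Symbols (52081 of 55414 IDs) and exon lengths came from GENCODE M21, an older build, so the files' genes are given no coordinates.

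The test on these counts was that of edgeR 4.0.16 (R 4.3.3), with filterByExpr, TMM scaling, a robust quasi-likelihood F-test of CLP against Sham without covariates, Benjamini-Hochberg adjustment over 14004 genes and a threshold of 0.05. Fold changes are CLP over Sham, SE is the absolute log2 fold change over the square root of F, and CPM use TMM-scaled totals, at which 1 CPM is 15.1 to 27.6 reads. Libraries of a group differed beyond sampling noise (chi-square per degree of freedom at least 9.25). The edgeR step was tested on simulated data. Alternatives were DESeq2 1.42.0, limma-voom (limma 3.58.1), other scalings and filters, a replicate block and each library left out.

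The 10 genes and the lists were chosen with earlier results of these data known. Named from each related list are its most abundant gene and the 3 called genes, averaging 5 CPM or above, that changed most, and of marker lists the most abundant and most changed where they bear on a result. Of the genes the rule takes from the related lists, 2 are not reported here.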

Additional observations from a re-analysis of the deposited data

Results flagged for a closer look

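Among 30 sets of 4 values (the CPM of 10 genes and 5 within-library ratios, in CLP and in Sham), 2 held a library whose gap to the nearest of the others took up most of the range of its group. Chance alone flags about 1 in 20 such sets. Scarb2 was at 429.8 CPM in CLP replicate 2, against 390.3 to 391.8 CPM in the other CLP libraries. Timd4 was at 180.7 CPM in Sham replicate 1, against 155.4 to 159.7 CPM in the other Sham libraries, and still below every CLP library.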

How the results depend on the processing

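With DESeq2 size factors, DESeq2, limma-voom and a mean of at least 1 CPM, 2 of the 10 genes were called higher and 0 lower, as in edgeR with TMM. With library totals, 4 were lower (Scarb1 turned to -0.26 and Scarb2 to -0.20), and over all genes 1286 were higher and 6435 lower, against 2767 and 3297. That scaling alone moved the counts of the related lists past 1.5 times: 2 other scavenger receptors lower, 4 Lrp1 relatives lower (Lrpap1 turned to -0.0898 and Sorl1 to -0.21), 3 uptake genes higher, and 4 lipid genes higher and 8 lower. The shift follows from dropping the TMM factors, which spanned 0.87 to 0.91 for CLP libraries and 1.08 to 1.15 for Sham libraries. With no filter on low counts 1 of the 10, Timd4, was higher. With 1 library left out, 2 to 4 were higher and 0 to 1 lower, and with CLP replicate 3 and Sham replicate 4 both left out 4 were higher; the cause was not tested. Same-numbered libraries share only a number (correlations of their deviations 0.07, -0.04, 0.26 and -0.19). Of the CLP libraries, only replicate 3 correlated best with the Sham library of its own number. With a replicate block 2 of the 10 were higher and 1 lower, Stab1 (-0.44, adjusted p = 0.00809). At 19 to 51 counts a library, Colec12 is limited by depth.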

Other observations

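Lyve1, a hyaluronan receptor like Stab2, was the most changed gene of the endothelial list. It had 11.3, 7.11, 8.77 and 11.3 CPM in CLP replicates 1 to 4, against 2.14, 2.59, 2.21 and 0.82 CPM in Sham replicates 1 to 4. The groups did not overlap, and the log2 fold change was 2.31 (SE 0.31, edgeR adjusted p = 0.000158) with TMM and 1.99 with library totals. The collagen genes Col1a2 and Col1a1 of the stromal list were also called higher, Col1a2 at 7.84 ± 1.32 CPM in CLP and 3.08 ± 1.54 CPM in Sham (SD, n = 4 each). Of the genes that count as oxidised lipoprotein receptors, Olr1 (LOX-1) had 0.60 to 1.28 CPM in CLP and at most 0.12 CPM in Sham, where 3 of 4 libraries were at 0 counts, so no fold change is given.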
